A study of Mus musculus with 5 samples.

Results

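Whole bone marrow (BM) of mice was compared at day 7 (D7 CTX) and at day 2 (D2 CTX) after a single dose of cyclophosphamide (CTX), an alkylating drug that kills dividing cells, so the comparison runs from depletion to regrowth. Its members are the cells of those libraries in which 200 or more genes were detected and mitochondrial genes took under 20% of the unique molecular identifiers (UMIs), 14416 of the 25975 cells that met these limits in the 5 libraries of the series. Of them 6126 were D2 CTX cells and 8290 were D7 CTX cells. The mice were BALB/c, 4 to 8 weeks old, and the treated mice received 150 mg/kg CTX by intraperitoneal injection in PBS. The untreated (naive) whole BM library, with 7104 kept cells, is given beside them as the reference. Equal numbers of cells of 3 mice were pooled into 1 library per condition, after removal of dead cells, and read with the 3′ V3 reagents of 10x Genomics. With 1 pooled library per day the difference between days has no replicate check and cannot be told apart from a difference between pools or libraries, so no test was run and no p-value is given.

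CTX is turned in the body into a mustard that crosslinks the strands of DNA. Cells with such damage stabilise the transcription factor p53, which switches on genes that halt the cell cycle, such as Cdkn1a, and genes that start cell death. Dividing progenitors are lost, and the marrow later refills. Neutrophils, its most abundant product, pass from promyelocytes filled with azurophil granule proteases through myelocytes that make specific granule proteins to mature cells with segmented nuclei.

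The D2 CTX library held 34764874 UMIs over 6608 barcodes and the D7 CTX library 68459527 UMIs over 8605 barcodes, and 482 (7.29%) and 315 (3.66%) barcodes were removed. Kept cells had a median of 3033.5 UMIs at D2 CTX, 7189.5 at D7 CTX and 3953.5 in naive marrow, and 3.74%, 0.970% and 3.03% of the UMIs were mitochondrial. The D2 CTX and D7 CTX cells shared 10 barcode sequences. Ptprc, which encodes the pan-leukocyte antigen CD45 named in the labels, stood at 769.7 CPM (D2 CTX), 349 CPM (D7 CTX) and 379 CPM (naive), where CPM is UMIs per 1000000 UMIs of the cells summed. The labels call the cells BM mononuclear cells, yet 32.2% of them at D2 CTX and 22.8% at D7 CTX fell in the mature neutrophil gate described next, and mature neutrophils are not mononuclear.

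Cells were assigned to 16 marker gates by the share of their UMIs that came from a short marker list, with cut-offs set on the naive library. A cell past several cut-offs went to the gate it passed by the largest factor, which concerned 24.3% and 23.6% of the cells of each day. A gate is therefore a range of a score and not a cell type. With every cut-off doubled, the azurophil-gene gate (Mpo, Elane, Prtn3 and others) kept 22 of its 50 cells at D2 CTX and 412 of its 456 at D7 CTX, and the monocyte gate 87 of 188 and 459 of 733, while the specific-granule gate (Ltf, Camp, Ngp and others) kept 866 of 882 and 4581 of 4604 and the B lineage gate 1696 of 1727 and 187 of 205.

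The marrow was mixed at D2 CTX and neutrophilic at D7 CTX. The 3 neutrophil gates together held 47.4% of the cells at D2 CTX (95% Clopper-Pearson interval 46.1 to 48.7), 83.9% at D7 CTX (83.1 to 84.6) and 46.4% in naive marrow. Such intervals, here and for CPM (exact Poisson) and ratios (exact conditional), cover counting error only. Cells of the specific-granule gate, the stage of myelocytes and metamyelocytes, went from 14.4% (13.5 to 15.3) at D2 CTX to 55.5% (54.5 to 56.6) at D7 CTX, against 24.7% in naive marrow. The azurophil-gene gate, which takes in granulocyte-monocyte progenitors and promyelocytes, held 0.816% (0.606 to 1.07) and 5.5% (5.02 to 6.01) of cells, a log2 ratio of shares of 2.75 (2.33 to 3.20). Monocyte gate cells made up 3.07% (2.65 to 3.53) at D2 CTX, and at D7 CTX 8.84% (8.24 to 9.47), the latter near the naive 7.42%. Mature neutrophil gate cells went the other way from these 3 gates, with 32.2% (31 to 33.4) at D2 CTX, 22.8% (21.9 to 23.7) at D7 CTX and 19.4% in naive marrow. As a share of myeloid cells alone, the 3 neutrophil gates together differed by 0.08 on the log2 scale, against 0.82 over all cells. Within that sum the specific-granule gate went from 25.5% to 58.9% of myeloid cells, the azurophil-gene gate from 1.45% to 5.83% and the mature neutrophil gate from 57% to 24.2%.

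Lymphoid cells were near or above their naive shares at D2 CTX and scarce at D7 CTX. B lineage cells made up 28.2% (27.1 to 29.3) of D2 CTX, 2.47% (2.15 to 2.83) of D7 CTX and 28.6% of naive cells, a log2 ratio of -3.51 (-3.73 to -3.30) from D2 to D7. T cells went from 5.06% (310 cells) to 0.133% (11 cells), with 2.0% in naive marrow. NK cells stood at 1.83% and 0.277%. Plasmacytoid dendritic cells (pDCs), the main makers of type I interferon, stood at 3.02% and 1.1%, and plasma cells at 0.702% and 0.205%. Macrophages, which clear dead cells and recycle iron, stood at 1.99% (122 cells) and 0.217% (18 cells), with 0.718% in naive marrow. Their median depth was only 813 and 701.5 UMIs per cell. The interval of the log2 ratio lay below 0 for each of these gates.

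Erythroid cells stood below their naive share at both days, with 1.27% at D2 CTX and 0.265% at D7 CTX against 6.86% in naive marrow. The study gives lysis of red cells for mouse BM in general, and where it was applied this is a share of what the lysis left. Megakaryocyte gate cells stood at 0.637% and 0.205%, basophil or mast cells at 0.947% and 0.29%, and stromal or endothelial cells at 0.522% and 0.121%. The eosinophil gate held 2 cells in each library. The stem or early progenitor gate (Kit, Cd34, Meis1 and others) held 0.343% and 0.398%, a log2 ratio of 0.22 with an interval of -0.62 to 1.08, and its direction turned when cells were thinned to equal depth, so no difference is read from it. Cells past no cut-off made up 4.98% at D2 CTX and 1.59% at D7 CTX. Those of D2 CTX carried 15% of all D2 CTX UMIs and were led by Cd34, Ccnd1, Bex6, Egfl7 and Stmn1, genes of immature or dividing cells, while those of D7 CTX carried 1.59% of UMIs and were led by the MHC class II genes H2-Aa, H2-Ab1 and Cd74.

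**Figure D1:**
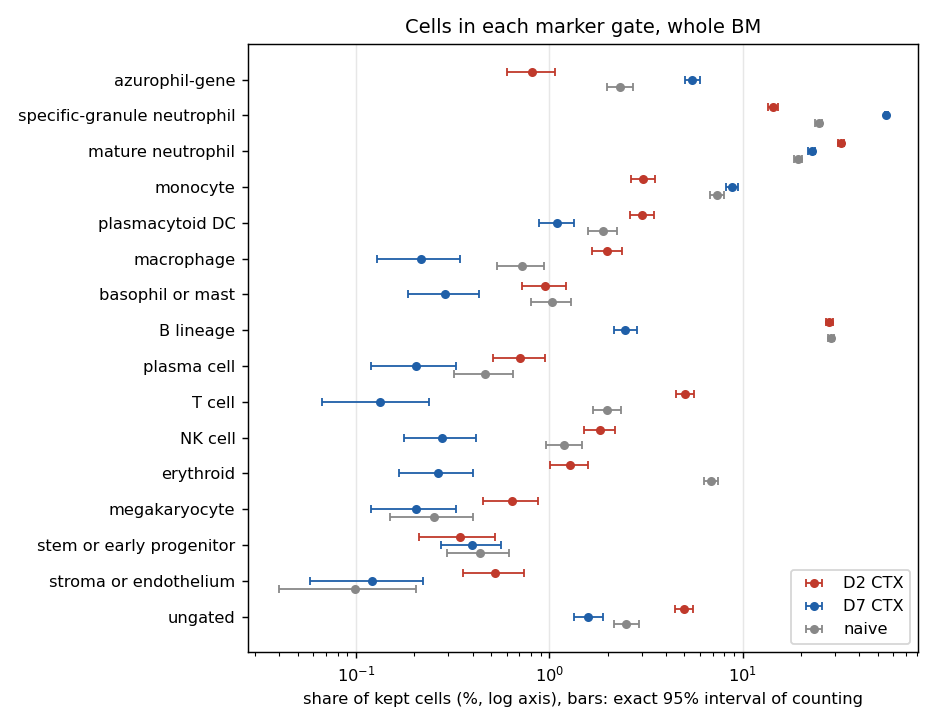
Share of kept cells in each marker gate (percent, log axis) at D2 CTX, at D7 CTX and in naive whole BM, with bars for the 95% Clopper-Pearson interval, which covers counting error only. The specific-granule gate sits at 55.5% at D7 CTX against 14.4% at D2 CTX, and the T cell gate at 0.133% against 5.06%.

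For genes, UMIs were summed over all kept cells of a library, and the log2 ratio of D7 CTX over D2 CTX was taken after adding 1 CPM to both, so that a positive value means more at D7 CTX. Of 5985 genes with at least 200 UMIs over both libraries and 20 CPM in 1 of them, 68 (1.14%) were at least 1 log2 unit higher at D7 CTX and 2038 (34.1%) at least 1 log2 unit lower. The median of all 5985 ratios was -0.71 on a total of which a few abundant granule genes, such as Camp and Ngp, took a larger part at D7 CTX. With that median set to 0 the split was 429 higher (7.17%) and 498 lower (8.32%). The whole-marrow ratios that follow are on the CPM scale, to be read against -0.71. A gene could pass this filter through the day on which it was high alone, so counts over the measured members of a list are descriptions. Pairs of values in brackets give D2 CTX first and D7 CTX second. In such sums fewer cells of a type and less RNA per cell cannot be told apart.

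The genes lowest at D7 CTX were mostly those of B and T lymphocytes. Ms4a1, the gene of the B cell antigen CD20, stood at 246 CPM (D2 CTX), 0.839 CPM (D7 CTX) and 62.7 CPM (naive) (log2 ratio -7.07). Fcmr, the Fc receptor for IgM, stood at 54.4 CPM at D2 CTX and 0.618 CPM at D7 CTX (-5.10), and Fcer2a, the IgE receptor CD23 of mature B cells, at 22 CPM at D2 CTX and 0.118 CPM at D7 CTX (-4.36). Both genes stood under 1 CPM at D7 CTX. The T cell genes Gimap3 (from 45.5 to 1.65 CPM) and Rasgrp1, an activator of Ras below antigen receptors (from 38.6 to 0.942 CPM), were among the 10 lowest too. So were P2ry10, a lymphocyte receptor (from 27.4 to 0.766 CPM), Ablim1, an actin-binding protein (from 80.9 to 4.18 CPM), and Fabp4, a fatty acid carrier (from 27.3 to 0.398 CPM). Scd1, which makes monounsaturated fatty acids, stood at 58.3 CPM (D2 CTX), 1.24 CPM (D7 CTX) and 20.9 CPM (naive). At D2 CTX it was one of the 10 leading genes of the B lineage gate. Phlda3, a p53 target that restrains Akt, was the exception among the 10 in being a damage gene, with 40 CPM (D2 CTX), 0.456 CPM (D7 CTX) and 1.56 CPM (naive) (-4.81). Immunoglobulin genes were listed apart from these 10. Among them Ighg1 was at -6.95, Ighg2b at -6.09, the light chain segment Iglv1 at -4.38, Ighm at -3.20, Igkc at -2.94 and Jchain at -2.82 on the log2 scale.

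The genes highest at D7 CTX belonged mostly to neutrophil maturation and granules. The stefin A genes Stfa3, Stfa2 and BC100530, inhibitors of cysteine proteases, led them. Stfa3 stood at 68.9 CPM (D2 CTX), 471 CPM (D7 CTX) and 25 CPM (naive) (2.76), Stfa2 at 96.3 CPM (D2 CTX), 649 CPM (D7 CTX) and 42.7 CPM (naive) (2.74) and BC100530 at 478 CPM (D2 CTX), 2525 CPM (D7 CTX) and 275 CPM (naive) (2.40). These genes are near-identical copies, so how the reads were split among them is uncertain. In all 3, D7 CTX lay above both D2 CTX and naive marrow, and D2 CTX also lay above naive. Lyz2, which encodes the bacterial wall enzyme lysozyme, stood at 3483 CPM (D2 CTX), 13428 CPM (D7 CTX) and 5456 CPM (naive) (1.95). Orm1, an acute-phase carrier protein stored in neutrophil granules, went from 34.1 to 133 CPM, Fcnb, a lectin of the granulocyte lineage, from 92.9 to 321 CPM, and Asprv1, an aspartic protease, from 56.7 to 199 CPM, with 21.3 CPM in naive marrow. Tmem216 (from 20.4 to 80.9 CPM), AI839979 (from 11.1 to 42) and Rnaset2a, a ribonuclease with a near-identical copy (from 13.8 to 54.2), completed the 10 highest.

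A mixture was built from the D2 CTX level of every gate, weighted by the D7 CTX share of UMIs of each gate. It gives how far the changed gate shares alone would move these sums. A change in the kinds of cells within a gate is not part of it and counts as beyond the mixture. The mixture placed 44 genes at least 1 log2 unit above and 623 at least 1 log2 unit below D2 CTX. Of the 68 genes higher at D7 CTX, 19 (27.9%) were past that fold in the mixture too, and 21 lay at least 1 log2 unit above the mixture. Of the 2038 lower genes, 576 (28.3%) were past the fold in the mixture, and 469 lay at least 1 log2 unit below it. The genes farthest above the mixture included Stfa2 (2.70), Stfa3 (2.23), Rnaset2a (1.89), the linker histone gene Hist1h1b (1.83), Asprv1 (1.64) and Jun (1.51), and those farthest below it Ms4a1 (-4.98), the matrix protein gene Thbs1 (-4.59), Phlda3 (-4.29), Cdkn1a (-3.56), Ccng1 (-3.33), Fcmr (-3.12) and the interferon-induced Rsad2 (-2.61). Levels within single gates are therefore given next to the whole marrow in what follows.

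In whole marrow, the gene lists lowest at D7 CTX were those of B and T lymphocytes, stroma, MHC class II and pDCs. Of the list of B cell receptor and identity genes, 20 of 20 measured members were lower (median -3.11), as were 7 of 8 T cell genes (-2.20), 2 of 4 cytotoxic genes (-1.42), 10 of 10 pDC genes (-2.06) and 3 of 3 stromal genes (-2.98). Through D2 CTX alone, 13 of the 20 B cell, 6 of the 8 T cell and 2 of the 4 cytotoxic genes passed the filter. So did 4 of the 10 pDC genes and all 3 stromal genes, so these counts are descriptions. With the median of all genes set to 0 the B cell count was 17 and the T cell count 5. With no filter 24 of 24 B cell, 20 of 21 T cell, 9 of 14 cytotoxic and 11 of 12 pDC genes were lower. Of 12 stromal genes 9 were then lower and 1 higher, and the stromal gate held 32 cells at D2 CTX and 10 at D7 CTX. Macrophage genes were at the background, with 2 of 7 measured lower and a median of -0.61. Spib, a transcription factor of B cells and pDCs, went from 117 to 6.49 CPM, and Ccl5, a chemokine of T and NK cells, from 125 to 7.46 CPM. Cxcl12, the chemokine of marrow stroma that holds stem cells and neutrophils in place, stood at 60.2 CPM (D2 CTX), 5.09 CPM (D7 CTX) and 12.3 CPM (naive). The gates of the cells that carry these genes held lower shares at D7 CTX too. Cd3d, a marker of the T cell gate, went the other way from the T cell genes, with 106 CPM (D2 CTX), 191 CPM (D7 CTX) and 98.1 CPM (naive). After thinning to 1000 UMIs it was seen in 16.7% (D2 CTX), 25.1% (D7 CTX) and 26.3% (naive) of mature neutrophil gate cells. In the specific-granule gate, whose share of cells was larger at D7 CTX, it was seen in 23.2% (D2 CTX), 22.4% (D7 CTX) and 22.4% (naive). In the B lineage gate it was 1.18% at D2 CTX and 0.99% at D7 CTX.

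Antigen presentation genes were lower for class II and near the background for class I. MHC class II had 6 of 6 genes lower (-2.45), led by H2-Ob and by Cd74, the invariant chain (763 and 95.2 CPM). MHC class I had 5 of 12 lower (-0.91) and 1 with the median of all genes set to 0, while H2-D1 (1121 and 1059.9 CPM) and the immunoproteasome subunit gene Psmb9 (133 and 133 CPM) hardly differed. The chemokine receptor list had 5 of 8 lower (-1.37), and 3 with the median set to 0. Its lowest members were S1pr1, which guides lymphocytes out of tissues (35.6 and 1.99 CPM), and Ccr7 (21.9 and 1.21 CPM), while Ccr2, the receptor of inflammatory monocytes, stood at 124 CPM at D2 CTX and 138 CPM at D7 CTX.

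Lists of protein folding, ribosome making and nucleotide supply stood below the median of all genes, and cholesterol synthesis stood above it. All 14 of 14 measured ribosome biogenesis genes were lower (median -1.70, -0.99 relative to all genes), with Ncl, a nucleolar organiser, at 619 CPM (D2 CTX), 190.2 CPM (D7 CTX) and 568 CPM (naive). Heat shock genes were lower in 8 of 9 cases (-1.87), among them Hsph1 (55.8 and 4.83 CPM) and the mitochondrial chaperone Hspe1 (430.2 and 99.95 CPM). Nucleotide supply genes were lower in 10 of 13 cases (-1.45), and Cad, which starts pyrimidine synthesis, stood at 30.4 CPM at D2 CTX and 3.47 CPM at D7 CTX. Of these 13 genes 9 passed the filter through D2 CTX alone, and with no filter 14 of 19 were lower. With the median of all genes set to 0, 5 ribosome biogenesis, 5 heat shock and 3 nucleotide supply genes were lower and none higher. No cholesterol synthesis gene passed the fold on the CPM scale, but their median of 0.67 lay 1.38 above that of all genes, and 6 of 8 were higher once the median was set to 0. Fdps, an enzyme of the isoprenoid pathway, stood at 29.2 CPM at D2 CTX and 55.5 CPM at D7 CTX. Glycolysis genes hardly passed the fold on the CPM scale, with 0 higher and 1 of 15 lower (-0.10), and Gapdh at 894 CPM at D2 CTX and 1483 CPM at D7 CTX. With the median set to 0, 5 glycolysis genes were higher and 0 lower.

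On the CPM scale the azurophil granule, specific granule, stefin A and CTX-handling lists were those with more members higher than lower. With the median of all genes set to 0 this held also for cholesterol synthesis, glycolysis, late neutrophil, mitosis, DNA replication and myeloid transcription factor genes. Of the azurophil granule list 5 of 10 were higher and 0 lower (median 0.98), and of the specific granule list 6 of 10 were higher and 0 lower (1.07). The serine protease genes Elane (364 and 1249.8 CPM) and Prtn3 (494 and 1471 CPM) were higher, while Mpo, the myeloperoxidase of the same granules, stood at 603 CPM at D2 CTX and 522 CPM at D7 CTX. Camp, the cathelicidin precursor, stood at 9930.1 CPM (D2 CTX), 32260.4 CPM (D7 CTX) and 16242 CPM (naive), and Ngp at 9628 CPM (D2 CTX), 30224 CPM (D7 CTX) and 14304 CPM (naive). The stefin A list had 4 of 5 higher (2.40). The late neutrophil list, which holds the same stefins, was split into 4 higher and 4 lower of 14 (-0.50), the lower ones being Il1b, Cxcr2, Mmp25 and Mxd1. Among enzymes that handle CTX and its products 3 of 10 were higher and 2 lower (0.38). The higher ones were the aldehyde dehydrogenase gene Aldh2 (288 and 665 CPM) and the glutathione transferase genes Mgst1 and Mgst2, and the lower ones Gstp1 (27.1 and 1.63 CPM) and Gclc.

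On the CPM scale the other lists were lower or mixed. Of myeloid transcription factors 1 of 14 was higher, Cebpe, the factor of specific granule genes (132 and 351 CPM), and 7 were lower, among them Gata2 (29.1 and 3.42 CPM) and Myc (31.6 and 7.29 CPM). With the median of all genes set to 0, 4 of these factors were higher and 2 lower. Growth factor receptors had 2 of 8 lower, Kit and Il7r. The BCL2 family had 5 of 9 lower (-1.03), or 2 with the median set to 0, led by Bcl2 itself (106 and 13.1 CPM). Crosslink repair genes had 2 of 6 lower (-0.86), Mgmt and Atr, with 6 of the 22 listed genes past the filter. DNA replication genes stood at a median of -0.47, with 1 higher and 4 lower of 25, and mitosis genes at -0.01 with 0 higher and 0 lower of 28, 0.71 above the median of all genes. Mcm7, a subunit of the replicative helicase, stood at 81.8 CPM (D2 CTX), 58.9 CPM (D7 CTX) and 188 CPM (naive). Interferon-stimulated genes were lower in 12 of 13 cases (-1.53) and NF-kB genes in 10 of 12 (-1.54), with none higher. Of these, 9 of the 13 interferon-stimulated and 6 of the 12 NF-kB genes passed the filter through D2 CTX alone. With no filter 18 of 22 interferon-stimulated and 12 of 16 NF-kB genes were lower, and 1 NF-kB gene was higher. Summed over all members, the interferon-stimulated list was at -0.62, which is not below the median of all genes (-0.71). With the median set to 0, 5 interferon-stimulated genes were lower and 1 higher, and 6 NF-kB genes were lower. Immediate early genes were near the background, with 5 of 18 lower and 0 higher (-0.61), and 3 lower and 2 higher with the median set to 0. Against the median of all genes, the negative medians that turn positive are those of macrophage (0.10), immediate early (0.11), DNA replication (0.24), mitosis (0.71), growth factor receptor (0.06), glycolysis (0.62) and late neutrophil genes (0.21).

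**Figure D2:**
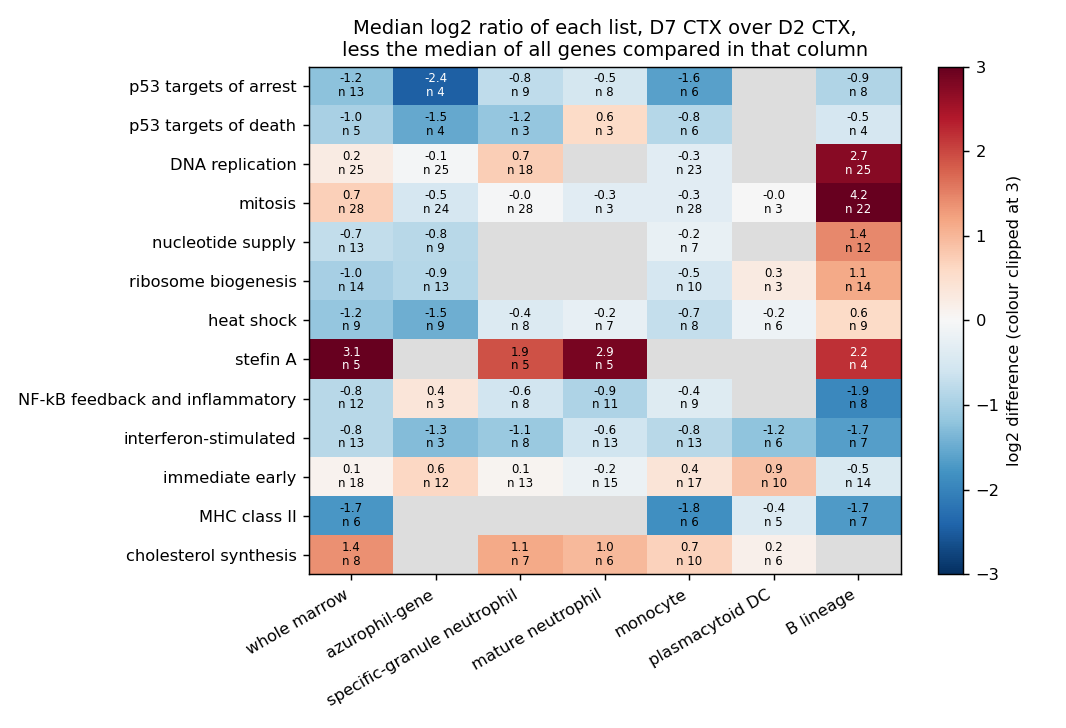
Median log2 ratio of D7 CTX over D2 CTX for the members past the filter of selected gene lists (rows), less the median of all genes compared in that column. Columns are whole marrow and 6 marker gates. Blue and red squares stand for below and above that median, and grey ones for too few members. In whole marrow the mitosis list is at 0.71 and the p53 arrest list at -1.24. In the B lineage gate most mitosis members past the filter passed through D7 CTX alone.

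p53 target genes were lower at D7 CTX across the marrow and within most gates that could be compared. In whole marrow 10 of 13 measured arrest genes were lower and 0 higher (list median -1.95, -1.24 relative to all genes), and 4 of 5 death genes were lower (-1.70). With the median of all genes set to 0 these counts were 8 and 2, and with no filter 12 of 15 arrest and 9 of 12 death genes were lower. Through D2 CTX alone, 8 of the 13 arrest and 3 of the 5 death genes passed the filter. Cdkn1a, which encodes the cyclin-dependent kinase inhibitor p21, stood at 159 CPM (D2 CTX), 12.8 CPM (D7 CTX) and 14.8 CPM (naive) (-3.54), and Ccng1, which encodes cyclin G1, at 209 CPM (D2 CTX), 20.5 CPM (D7 CTX) and 29.1 CPM (naive) (-3.29). Zmat3 stood at 27.4 CPM (D2 CTX), 0.898 CPM (D7 CTX) and 2.15 CPM (naive), and Bax, a pore-forming death gene, at 225 CPM (D2 CTX), 51.6 CPM (D7 CTX) and 82.5 CPM (naive). In each of these genes D7 CTX was at or below naive marrow. Mdm2, which encodes the ligase that degrades p53, differed less (95.8 and 49.2 CPM), and Gadd45a (90 and 75.1 CPM) and Tnfrsf1a (75.7 and 76.8 CPM) less still.

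The promoters of Cdkn1a and Ccng1 are shown because both genes were lower at D7 CTX in whole marrow and in the azurophil-gene and monocyte gates. The windows are the 250 bases before a RefSeq start site in GRCm38.p6, the build to which the reads were mapped as mm10, and capitals mark matches to the p53 half-site. Cdkn1a lies at chr17:29090729-29090978 on the + strand and Ccng1 at chr11:40755287-40755536 on the - strand. Cdkn1a has 2 windows, and the one shown was chosen for having the most half-sites.
Cdkn1a: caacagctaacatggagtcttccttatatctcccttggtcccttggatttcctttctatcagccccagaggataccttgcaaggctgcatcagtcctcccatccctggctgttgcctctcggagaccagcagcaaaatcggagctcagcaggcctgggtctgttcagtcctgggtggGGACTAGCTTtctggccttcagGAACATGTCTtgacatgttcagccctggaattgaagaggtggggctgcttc
Ccng1: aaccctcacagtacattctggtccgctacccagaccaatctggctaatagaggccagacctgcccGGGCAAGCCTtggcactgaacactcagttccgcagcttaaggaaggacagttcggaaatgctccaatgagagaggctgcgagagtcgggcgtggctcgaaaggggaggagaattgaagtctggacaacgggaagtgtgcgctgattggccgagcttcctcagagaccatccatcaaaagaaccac
The Cdkn1a window held 2 half-sites and the Ccng1 window 1, searched on both strands. Of all 32851 RefSeq windows of this length 7.13% held at least 1 half-site and 0.259% at least 2. Among the 11 arrest genes with a window 5 held at least 1, and for death genes it was 3 of 9. Each listed gene was counted by its window with the most matches, while the background counts every window of 27025 genes. The shares are therefore not on the same basis, and both lists were made of p53 targets. A match in letters is a description and not a site of binding.

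Within gates p53 targets were lower in different numbers. Of the genes compared in the azurophil-gene gate 4.2% were higher and 16.5% lower, in the specific-granule gate 0.874% and 14.2%, in the mature neutrophil gate 0.974% and 20.1%, in the monocyte gate 1.55% and 3.8%, in the pDC gate 0.497% and 1.78%, and in the B lineage gate 9.24% and 24.3%. Against these, arrest genes were lower in 3 of 4 cases in the azurophil-gene gate, 5 of 9 in the specific-granule gate, 4 of 8 in the mature neutrophil gate, 4 of 6 in the monocyte gate and 5 of 8 in the B lineage gate. None was higher in any of these gates, and in the pDC gate 0 of 2 were lower. A gene could pass the filter within a gate through 1 day alone. In these 5 gates, in this order, 2, 5, 2, 0 and 1 of the arrest genes passed through D2 CTX alone. These counts are therefore descriptions. With no filter, 11, 9, 8, 11 and 9 of the 15 listed arrest genes were lower, and 1 was higher in the B lineage gate. Death genes were lower in 3 of 4, 2 of 3, 0 of 3, 3 of 6 and 1 of 4 cases in the same 5 gates. Of them 2, 1, 0, 2 and 1 passed through D2 CTX alone, and with no filter 10, 6, 1, 7 and 4 of 12 were lower.

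Monocyte gate cells had the highest Cdkn1a level at D2 CTX among the 6 gates. There Cdkn1a stood at 511 CPM (D2 CTX), 53.1 CPM (D7 CTX) and 57 CPM (naive), with intervals of 481 to 542 on the earlier and 47.5 to 59.3 on the later day. In the azurophil-gene gate it stood at 199.9 CPM (D2 CTX), 5.34 CPM (D7 CTX) and 4.65 CPM (naive), and in the specific-granule gate at 138 CPM (D2 CTX), 8.36 CPM (D7 CTX) and 6.34 CPM (naive). All 3 gates were back at about the naive level at D7 CTX. B lineage cells carried little Cdkn1a at either day (38.1 CPM at D2 CTX and 35.1 CPM at D7 CTX, naive 18.8), while their Ccng1 went from 136 to 26.1 CPM, Trp53inp1, a regulator of p53 and autophagy, from 313 to 84.2 CPM, and Bbc3, which encodes the death protein PUMA, from 43.1 to 3.01 CPM. With each cell thinned to 1000 UMIs, a Cdkn1a UMI was seen in 35.5% (28.6 to 42.9) of monocyte gate cells at D2 CTX, in 4.92% (3.47 to 6.75) at D7 CTX and in 2.3% and 1.98% of B lineage cells. In the mature neutrophil gate the arrest genes Plk3 (127 and 36.1 CPM) and Trp53inp1 (268 and 119.97 CPM) were lower, but Bax was not (20.9 and 24 CPM).

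**Figure D3:**
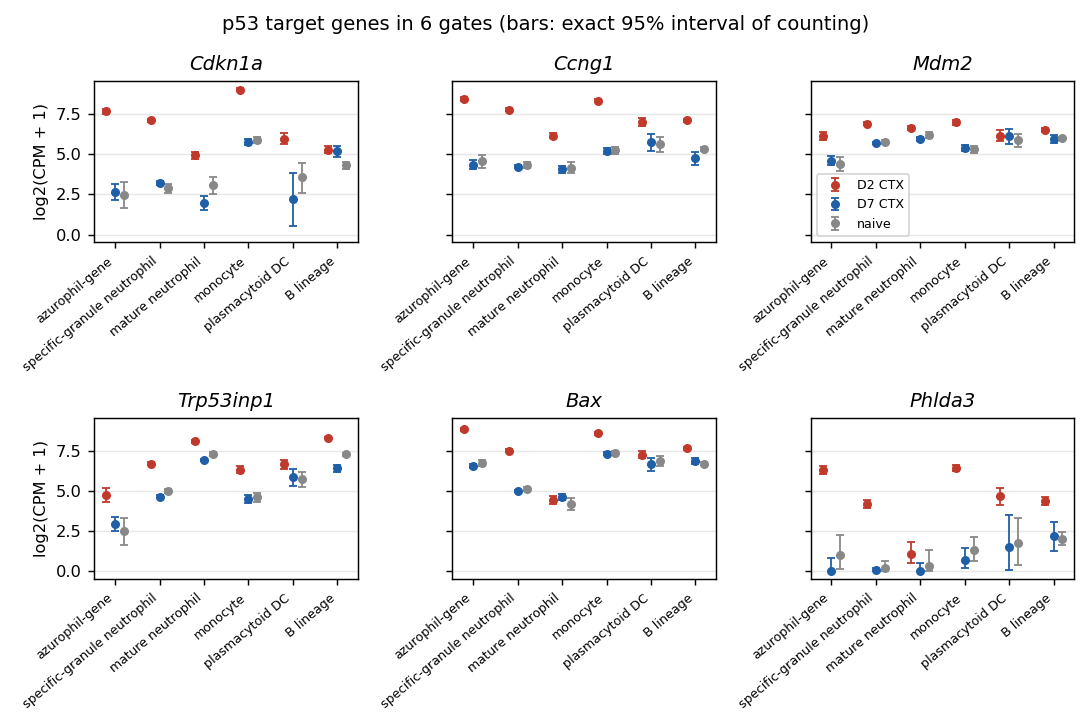
Level as log2(CPM + 1) of the p53 target genes Cdkn1a, Ccng1, Mdm2, Trp53inp1, Bax and Phlda3, 1 panel for each gene. Each panel shows 6 marker gates at D2 CTX, at D7 CTX and in naive whole BM, with exact Poisson intervals for counting error. In the monocyte gate Cdkn1a is at 511 CPM at D2 CTX and 53.1 CPM at D7 CTX, and in the B lineage gate it is at 38.1 and 35.1 CPM.

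The few B lineage cells at D7 CTX differed from those at D2 CTX in having more of the transcripts of division and early B cells and fewer of those of mature B cells. Genes of mature B cells outside the gate's own markers were lower. Fcer2a stood at 134 CPM (D2 CTX), 2.51 CPM (D7 CTX) and 31.6 CPM (naive) (-5.26) in this gate, Bank1, an adaptor of B cell receptor signalling, at 348 CPM (D2 CTX), 9.03 CPM (D7 CTX) and 74.6 CPM (naive) (-5.12), Ighd, the IgD heavy chain, at 208 CPM at D2 CTX and 37.6 CPM at D7 CTX, and Cr2, the complement receptor CD21, at 70.7 CPM at D2 CTX and 15 CPM at D7 CTX. Il7r, the receptor for the growth factor of early B cells, stood at 139.8 CPM (D2 CTX), 315 CPM (D7 CTX) and 356 CPM (naive). Dntt, which adds bases to rearranging antibody genes, stood at 162 CPM (D2 CTX), 216 CPM (D7 CTX) and 122 CPM (naive) and was seen in 4.89% (D2 CTX) and 17.8% (D7 CTX) of cells thinned to 1000 UMIs. Rag1, a subunit of the enzyme that rearranges antibody genes, went the other way at 234 CPM at D2 CTX and 83.7 CPM at D7 CTX. Among the markers that set the gate, which are given as a description, Ms4a1 was seen in 59.5% and 3.96% of thinned cells, and the surrogate light chain genes Vpreb1 and Igll1 in 7.9% and 40.1% and in 7.02% and 38.1%. Of the whole B list 3 of 24 measured genes were higher and 13 lower (-1.22).

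Cell division genes of this gate were higher at D7 CTX than at D2 CTX. With no filter, 29 of 29 mitosis genes and 28 of 29 DNA replication genes were at least 1 log2 unit higher at D7 CTX. Summed over all members, mitosis genes stood at 505 CPM (D2 CTX), 6372 CPM (D7 CTX) and 6101 CPM (naive) and DNA replication genes at 1021 CPM (D2 CTX), 5519.8 CPM (D7 CTX) and 3859 CPM (naive). Of the 22 mitosis genes past the filter 16 passed through D7 CTX alone, as did 5 of 25 DNA replication genes, so the medians over these members (3.85 and 2.42, all genes -0.30) rest partly on genes that had to differ. Ccnb2 and Ccnb1, which encode the B-type cyclins of mitosis, were the 2 highest ratios of the gate. Ccnb2 stood at 5.53 CPM (D2 CTX), 246 CPM (D7 CTX) and 186 CPM (naive) (5.24) and Ccnb1 at 4.2 CPM (D2 CTX), 153 CPM (D7 CTX) and 97.3 CPM (naive) (4.89). Cenpf, a kinetochore protein, went from 9.73 to 309 CPM, Rrm2, a subunit of ribonucleotide reductase, from 15.8 to 396 CPM, and Rsph1 from 4.77 to 134 CPM. Mki67, the proliferation antigen Ki-67, stood at 47.1 CPM (D2 CTX), 701 CPM (D7 CTX) and 748 CPM (naive). D2 CTX was the low point of these genes, and D7 CTX was close to or above naive marrow.

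The promoters of these cyclins are shown because they hold several CCAAT boxes, the motif of the factor NF-Y, here in capitals. Ccnb2 lies at chr9:70421555-70421804 and Ccnb1 at chr13:100786487-100786736, both on the - strand of GRCm38.p6.
Ccnb2: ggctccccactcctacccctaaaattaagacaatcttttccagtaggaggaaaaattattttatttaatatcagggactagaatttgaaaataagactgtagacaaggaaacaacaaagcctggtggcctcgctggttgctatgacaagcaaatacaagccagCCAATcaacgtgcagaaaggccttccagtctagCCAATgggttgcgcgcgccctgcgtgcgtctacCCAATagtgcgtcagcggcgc
Ccnb1: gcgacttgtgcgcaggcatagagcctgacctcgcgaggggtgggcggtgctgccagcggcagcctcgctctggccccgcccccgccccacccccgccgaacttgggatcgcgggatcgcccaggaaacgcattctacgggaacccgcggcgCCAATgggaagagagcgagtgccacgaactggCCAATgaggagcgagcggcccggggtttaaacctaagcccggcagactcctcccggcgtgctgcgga
Searched on both strands, the Ccnb2 window held 3 CCAAT and the Ccnb1 window 2. Of all 32851 windows 33.8% held at least 1 and 10.1% at least 2. Of the 25 mitosis genes with a window 20 held at least 1 and 14 at least 2, and of the 25 DNA replication genes with a window 15 and 8. Here too each listed gene was counted by its window with the most matches, so these shares and the background are not on the same basis. These letters say nothing of binding in the cells measured.

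Growth genes were also higher in the B lineage gate, unlike in whole marrow. Nucleotide supply genes were higher in 7 of 12 cases (1.13), as with Impdh2, which makes guanine nucleotides (88.1 and 302 CPM), and ribosome biogenesis genes in 6 of 14 cases (0.85). Heat shock genes were higher in 2 of 9 and lower in 0. MHC class II genes were lower in 7 of 7 cases (-1.99), with Cd74 at 2673 CPM (D2 CTX), 195 CPM (D7 CTX) and 1011 CPM (naive). NF-kB genes were lower in 7 of 8 cases (-2.24), among them Birc3, an inhibitor of apoptosis (234 and 21.1 CPM), and Relb (57.6 and 10.5 CPM). Of these 8 genes 4 passed the filter through D2 CTX alone, and with no filter 12 of 16 were lower. The Il1b and Cxcl2 levels of this gate, 68.5 and 75.7 CPM at D2 CTX, are read as background, since both are genes of myeloid cells. The NF-kB count was not corrected for such background. Interferon-stimulated genes were lower in 5 of 7 (-1.95), with Ddx58, which encodes the RNA sensor RIG-I, at 126 CPM (D2 CTX), 6.02 CPM (D7 CTX) and 30.4 CPM (naive). Of these 7 genes 3 passed through D2 CTX alone, and with no filter 16 of 22 were lower. The survival genes Mcl1 (695 and 191 CPM) and Bcl2 (69.4 and 16.5 CPM) were lower, as were the death genes Bbc3 and Bmf, in a BCL2 family list with 5 of 9 members lower. The immediate early gene Fosb was an exception among signalling genes, with 9.92 CPM (D2 CTX), 142 CPM (D7 CTX) and 61.1 CPM (naive), while Egr1 stood at 145 CPM at D2 CTX and 16.5 CPM at D7 CTX.

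**Figure D4:**
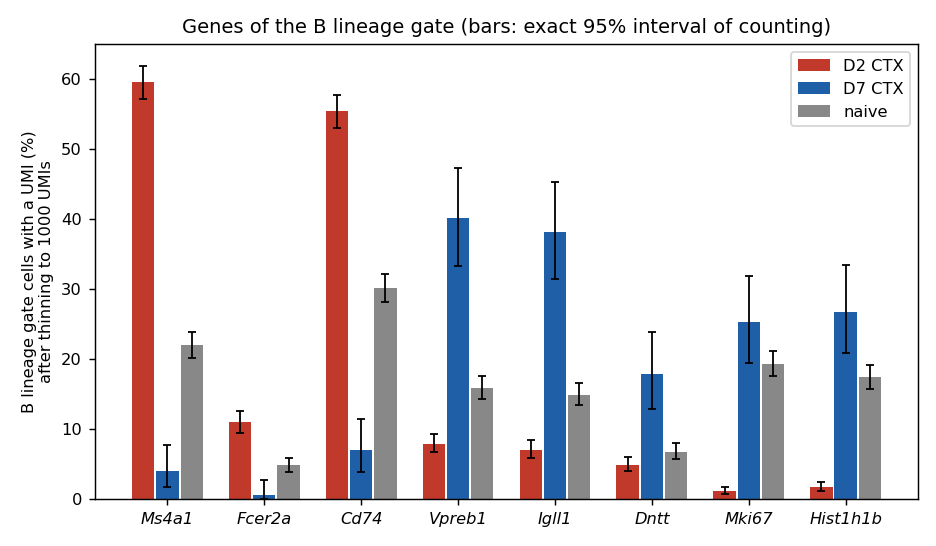
Share of B lineage gate cells (percent) in which a UMI of the gene was seen after thinning each cell to 1000 UMIs. The genes are Ms4a1, Fcer2a, Cd74, Vpreb1, Igll1, Dntt, Mki67 and Hist1h1b. Shares are given for D2 CTX (1696 cells), D7 CTX (202 cells) and naive whole BM, with 95% Clopper-Pearson intervals for counting error. Ms4a1 is at 59.5% at D2 CTX and 3.96% at D7 CTX, and Mki67 at 1.06% and 25.2%.

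In mature neutrophil gate cells the stefin A genes were much higher at D7 CTX. Stfa2 stood at 482 CPM (D2 CTX), 3191 CPM (D7 CTX) and 484 CPM (naive) (2.72), Stfa3 at 274 CPM (D2 CTX), 1917 CPM (D7 CTX) and 241 CPM (naive) (2.80) and BC100530 at 1863 CPM (D2 CTX), 9532 CPM (D7 CTX) and 2485 CPM (naive) (2.35). In all 3, D7 CTX stood above both other libraries. After thinning to 1000 UMIs a Stfa2 UMI was seen in 19.2% (17.3 to 21.2) of D2 CTX, 42.7% (40.4 to 44.9) of D7 CTX and 13.1% of naive cells of the gate, against 2.06% and 2.48% of cells of the B lineage gate, which should lack it. Asprv1 was seen in 17.8% and 48.1% of mature neutrophil gate cells and in 1.71% and 0.495% of B lineage cells. In the specific-granule gate Stfa2 went from 54.7 to 357 CPM and BC100530 from 696 to 1984 CPM, above the 135 and 366 CPM of the B lineage gate at D7 CTX. In the azurophil-gene gate their D7 CTX levels (49.9 and 227 CPM) lay below those of the B lineage gate and are read as background.

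Inflammatory and interferon genes of mature neutrophil gate cells were lower at D7 CTX. NF-kB genes were lower in 10 of 11 cases (median -1.43, all genes -0.50), or 5 with the gate's median set to 0. Ptgs2, which makes prostaglandins, stood at 206 CPM (D2 CTX), 30.4 CPM (D7 CTX) and 146 CPM (naive), Cxcl2, a chemokine that calls in neutrophils, at 941 CPM (D2 CTX), 205 CPM (D7 CTX) and 610.05 CPM (naive), and Il1rn, the IL-1 antagonist, at 112 CPM (D2 CTX), 33.4 CPM (D7 CTX) and 111 CPM (naive). Cxcl2 in the B lineage gate was at 75.7 and 1.0 CPM. In Ptgs2, Cxcl2 and Il1rn the D7 CTX value was the lowest of the 3 libraries. Interferon-stimulated genes were lower in 8 of 13 cases (-1.10), or 4 with the gate's median set to 0, with Rsad2, an antiviral enzyme, at 165 CPM (D2 CTX), 21.8 CPM (D7 CTX) and 45.6 CPM (naive), and Ifit1 at 61.8 CPM (D2 CTX), 10 CPM (D7 CTX) and 13.7 CPM (naive). Here D2 CTX was the highest of the 3. Thbs1, which encodes the adhesive matrix protein thrombospondin, stood at 431 CPM (D2 CTX), 6.38 CPM (D7 CTX) and 238 CPM (naive) and was seen in 22.2% and 0.48% of thinned cells, against 1.3% of D2 CTX B lineage cells. Immediate early genes were lower in 5 of 15 cases, or 3 with that median set to 0, led by Nr4a1 and Fosb, and Jun alone was higher (27.2 and 56.9 CPM). Azurophil granule transcripts were higher in this gate, with Elane at 11.1 CPM (D2 CTX), 87.7 CPM (D7 CTX) and 134 CPM (naive) and Ctsg at 4.4 CPM at D2 CTX and 56.6 CPM at D7 CTX, but Elane also stood at 7.06 and 41.6 CPM in the B lineage gate, so a difference of the same kind was seen in cells that should lack it.

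Among genes higher at D7 CTX in specific-granule gate cells the largest ratios were those of stefins, linker histones and Jun. Hist1h1b, the linker histone H1.5, stood at 59.6 CPM (D2 CTX), 287 CPM (D7 CTX) and 189 CPM (naive) (2.25) and Hist1h1d at 12.2 CPM (D2 CTX), 45.8 CPM (D7 CTX) and 48.9 CPM (naive) (1.82). Such histone transcripts mostly lack poly(A) tails, so a 3′ library captures them poorly. Hist1h1b was seen in 2.97% and 13.9% of thinned cells. Jun, a component of the factor AP-1, went from 28.1 to 98.8 CPM. Of cholesterol synthesis genes 2 of 7 were higher (0.73), Idi1 (12 and 39.5 CPM) and Fdps (20 and 51.7 CPM). Thbs1 was the lowest ratio of the gate at 364 CPM (D2 CTX), 9.86 CPM (D7 CTX) and 137 CPM (naive) (-5.07). Interferon-stimulated genes were lower in 7 of 8 cases (-1.52), among them Ifi27l2a at 581 CPM (D2 CTX), 35.8 CPM (D7 CTX) and 53.1 CPM (naive). Of these 8 genes 5 passed the filter through D2 CTX alone, and with no filter 17 of 22 were lower. The late neutrophil list was split, with 4 higher and 7 lower of 14. The higher ones were stefins, and the lower ones included Mxd1, an antagonist of MYC (548 and 178 CPM), Cxcr2, the receptor that draws neutrophils to blood (215 and 67.5 CPM), and Csf3r, the G-CSF receptor (199 and 70.2 CPM). Olfm4, found in a subset of neutrophils, stood at 1002 CPM (D2 CTX), 393 CPM (D7 CTX) and 765 CPM (naive). Mitosis genes were lower in 2 of 28 (-0.45, all genes -0.40), and 1 of 18 DNA replication genes was higher (0.33).

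Azurophil-gene gate cells of D2 CTX were few and deeply read, with 50 cells at a median of 33662.5 UMIs, against 456 cells at 10185.5 UMIs at D7 CTX. Heat shock genes were lower at D7 CTX in 7 of 9 cases (median -1.82, all genes -0.35), with Hsph1 at 97.5 CPM (D2 CTX), 6.77 CPM (D7 CTX) and 13.4 CPM (naive) and Hsp90aa1 at 1783 CPM (D2 CTX), 375 CPM (D7 CTX) and 596 CPM (naive). Ribosome biogenesis genes were lower in 10 of 13 (-1.21), nucleotide supply genes in 6 of 9 (-1.19), and with the gate's median set to 0 these counts were 6 for heat shock, 5 for ribosome biogenesis and 3 for nucleotide supply. DNA replication genes were near the background, with 6 of 25 lower (-0.42) and 2 with the median set to 0, among them Rrm1 (192 and 56.2 CPM). Hsph1, Hsp90aa1 and Rrm1 were highest at D2 CTX among the 3 libraries. Granule genes were higher, namely 5 of 8 of the specific granule list (1.01), with Ngp at 746 CPM (D2 CTX), 3822 CPM (D7 CTX) and 2167 CPM (naive). The B lineage gate had 535 and 861 CPM of Ngp. Fcnb went from 85 to 768 CPM, Tslp, a cytokine, from 5.45 to 59.3 CPM, and Mogat2, which makes diacylglycerol, from 3.81 to 47.4 CPM. The proteases Prtn3 and Elane, which helped set the gate, stood at 5168 and 4906 CPM at D2 CTX and at 15146 and 13933 CPM at D7 CTX. Of the Igkc UMIs of the gate at D2 CTX 1 cell held 10123, so immunoglobulin levels of this gate are not compared.

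Monocyte gate cells of D2 CTX carried more of MHC class II and of several interferon-stimulated genes. MHC class II genes were lower at D7 CTX in 4 of 6 cases (median -1.94, all genes -0.10), with Cd74 at 1409 CPM (D2 CTX), 361 CPM (D7 CTX) and 682 CPM (naive) and H2-Ab1 at 510.3 CPM (D2 CTX), 113 CPM (D7 CTX) and 204 CPM (naive). MHC class I genes were lower in 0 of 12 cases (0.21). Cd74 was seen in 30.1% (23.5 to 37.3) of cells at D2 CTX, 5.2% (3.7 to 7.07) at D7 CTX after thinning, against 2.5% and 0.587% of mature neutrophil gate cells. Conventional dendritic cells had no gate, so such cells could fall in this gate or past no cut-off. Cells past no cut-off were led by H2-Aa, H2-Ab1 and Cd74 at D7 CTX and not at D2 CTX. Whether the class II difference of this gate lies in which cells were assigned to it was not tested. Interferon-stimulated genes were lower in 6 of 13 (-0.93), with Ifi44 at 277 CPM (D2 CTX), 61.9 CPM (D7 CTX) and 123 CPM (naive). In Cd74, H2-Ab1 and Ifi44, D7 CTX lay below naive monocyte gate cells. Vcan, the matrix proteoglycan versican, had the lowest ratio of the gate at 219.7 CPM (D2 CTX), 10.4 CPM (D7 CTX) and 6.87 CPM (naive) (-4.28), and it was seen in 14.2% and 0.684% of thinned cells and in 0.0498% of thinned naive B lineage cells. Sdc3, a proteoglycan of the cell surface, went from 89.9 to 10.1 CPM.

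Other monocyte genes were higher at D7 CTX. Immediate early genes were higher in 3 of 17 cases, Jun (254 CPM (D2 CTX), 918 CPM (D7 CTX) and 437 CPM (naive)), the quiescence factor Klf2 (176 CPM (D2 CTX), 442 CPM (D7 CTX) and 193 CPM (naive)) and Ier2 (222 CPM (D2 CTX), 512 CPM (D7 CTX) and 439 CPM (naive)), and lower in 1, Nr4a1. Ccl3, a chemokine for monocytes and lymphocytes, went from 76 to 265 CPM, while Il1b went from 83 to 11.7 CPM, beside 68.5 and 4.01 CPM in the B lineage gate, which should lack it. Upb1, an enzyme of pyrimidine breakdown, went from 5.56 to 38.1 CPM and Rbks, a ribokinase, from 11.1 to 65.7 CPM, to about the naive 45 and 54.2 CPM. Mgst1 stood at 247 CPM (D2 CTX), 701 CPM (D7 CTX) and 509.95 CPM (naive), and Ms4a3, a gene of granulocyte-monocyte progenitors, at 86.7 CPM (D2 CTX), 21.3 CPM (D7 CTX) and 12 CPM (naive). Ribosome biogenesis (1 of 10 lower), mitosis (0 of 28) and DNA replication (1 of 23) differed little in this gate.

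The pDC gate had the smallest shares of genes past the fold, with the fewest genes compared (1408). Tcf4, the transcription factor that defines the lineage and no marker of the gate, stood at 4107 CPM at D2 CTX and 3354 CPM at D7 CTX, and Irf8 at 3829.7 CPM at D2 CTX and 4323 CPM at D7 CTX. Interferon-stimulated genes were lower at D7 CTX in 4 of 6 cases (-1.22), among them Ifi44 (294 CPM (D2 CTX), 93.2 CPM (D7 CTX) and 91 CPM (naive)), Ifi27l2a and Irf7. Immediate early genes were higher in 5 of 10 cases (0.87), with Jun at 167 CPM (D2 CTX), 679.97 CPM (D7 CTX) and 247 CPM (naive) and Fos at 218 CPM (D2 CTX), 556 CPM (D7 CTX) and 171 CPM (naive). Jun was thus higher at D7 CTX in the pDC, monocyte, specific-granule, mature neutrophil and azurophil-gene gates. In the B lineage gate Jun stood at 272 CPM at D2 CTX and 479 CPM at D7 CTX. Ccl4, an inflammatory chemokine, went from 215 to 43.9 CPM. Camp and Retnlg were among the extreme ratios of this gate but are granulocyte genes, and Camp in the B lineage gate went from 324 to 736 CPM as well.

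The share of cells with division transcripts, taken as cells with at least 2 UMIs of 58 replication and mitosis genes after thinning to 1000 UMIs, was 23.8% (22.7 to 25) at D2 CTX, 33.9% (32.9 to 35) at D7 CTX and 38.8% in naive marrow. At 2000 UMIs per cell it was 39.6% at D2 CTX and 42.1% at D7 CTX, a smaller difference, and without thinning 49.9% and 61.7%. Thinning to 1000 UMIs left out 599 D2 CTX and 73 D7 CTX cells with fewer UMIs. In B lineage cells the share went from 22.9% (20.9 to 25) to 64.4% (57.3 to 71), with 46.5% in naive marrow, and in specific-granule gate cells from 30.1% (27.1 to 33.3) to 39.8% (38.4 to 41.2), with 34.8%. Both gates thus had a larger share of such cells at D7 CTX. In the B lineage gate their number was lower, with 388 of 1696 thinned cells at D2 CTX and 130 of 202 at D7 CTX. The azurophil-gene gate went the other way, from 100% (92.9 to 100, all 50 cells) to 70.9% (66.4 to 75), against 89.7% in naive marrow. At 2000 UMIs per cell the values were 100% and 88.9%, and without thinning 100% and 99.6%, so this difference shrank with depth. Monocyte gate cells stood at 39.3% and 39.5%. For mature neutrophil gate cells, which do not divide, the shares were 6.67% and 3.25% after thinning and 22.1% and 29.4% without it, so the direction turned with depth. In pDC gate cells the shares were 12.4% (8.05 to 18.1) and 22% (14 to 31.9), whose intervals overlap.

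**Figure D5:**
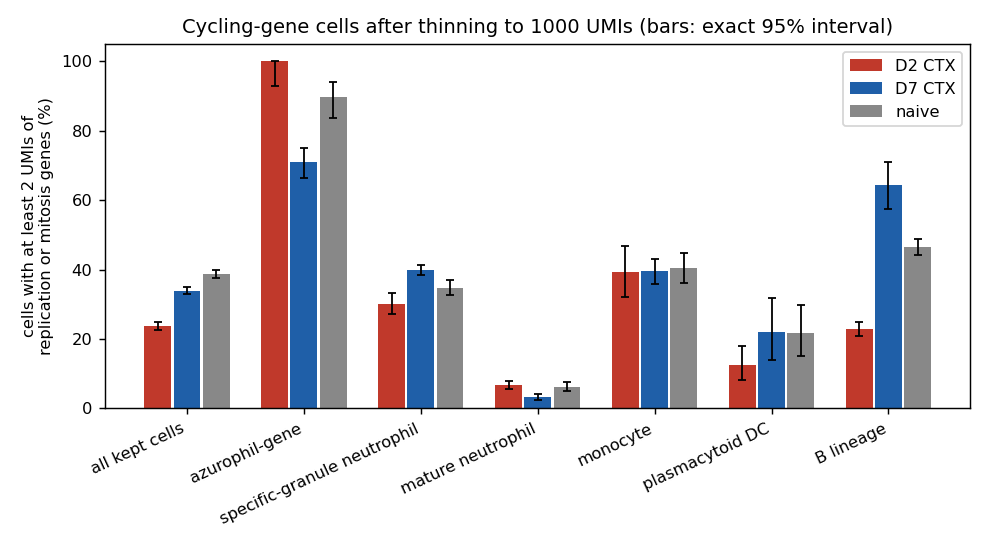
Share of cells (percent) with at least 2 UMIs of 58 replication and mitosis genes after thinning each cell to 1000 UMIs, in all kept cells and in marker gates, at D2 CTX, at D7 CTX and in naive whole BM, with 95% Clopper-Pearson intervals for counting error. B lineage cells are at 22.9% at D2 CTX and 64.4% at D7 CTX, and the azurophil-gene gate at 100% and 70.9%.

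Hemoglobin transcripts were lower at D7 CTX in whole marrow and also in gates whose cells should lack them. The hemoglobin and heme list had 9 of 10 members lower in whole marrow (-1.90). Hbb-bs, an adult beta globin gene, stood at 1739.9 CPM (D2 CTX), 345 CPM (D7 CTX) and 10930 CPM (naive). In the B lineage gate it was at 846 CPM at D2 CTX and 8.52 CPM at D7 CTX, in the mature neutrophil gate at 1537 CPM at D2 CTX and 16.7 CPM at D7 CTX and in the pDC gate at 588 CPM at D2 CTX and 9.14 CPM at D7 CTX. Its transcript was seen in 7.96% and 0.99% of thinned B lineage cells and in 8.27% and 1.81% of thinned mature neutrophil gate cells. These are like shares in cells that should lack the gene. The extreme ratios of Hba-a1, Hba-a2, Hbb-bs and Hbb-bt in the neutrophil, pDC and B lineage gates are therefore given as background and not as expression.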

How the data were processed

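The whole BM libraries of D2 CTX, D7 CTX and naive mice were used, each 1 pool of 3 mice. The authors aligned reads to mm10 with Cell Ranger 3.1, and per the submitters' processing notes Seurat 5.0 was used later. The deposited values are unnormalized counts of UMIs for each gene in each barcode. Every deposited barcode held at least 500 UMIs. The limits on cells were 200 genes as a minimum and mitochondrial UMIs under 20%. Here UMIs were summed per gene over all kept cells or over a marker gate and scaled to CPM with Python 3.11.15, numpy 2.4.6, scipy 1.17.1 and pandas 2.3.3, and doublets were scored with scanpy 1.11.5 for an alternative only (0.8% per 1000 cells). Gene levels were compared in the 6 gates with at least 50 cells in both libraries and described in the text. Genes needed 200 UMIs over both libraries and 20 CPM in 1. A difference of 1 log2 unit was counted, without a test. Conventional dendritic cell markers were listed but given no gate.

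Genes named are the 10 highest and 10 lowest ratios in whole marrow, the 5 highest and lowest in each gate, up to 4 largest changes of each of the 31 lists, and the gate markers. Immunoglobulin genes and Xist were listed apart. A few more were chosen after their values were seen (Mcm7, H2-D1, Psmb9, Ccr2, Gapdh, Mpo, Mki67, Rag1, Dntt, Il7r, Tcf4, Camp, Ngp and Olfm4 among them). The lists and gates were chosen with earlier results of these data known. For alternatives the scaling, filters, pseudocount, gate cut-offs, depth and background were changed. Sums and ratios were checked on simulated data. Promoter windows came from RefSeq.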

Additional observations from a re-analysis of the deposited data

Results flagged for a closer look

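Nucleotide supply genes, summed, were higher at D7 CTX in the B lineage gate (log2 ratio 1.24) and lower in the azurophil-gene gate (-1.26). The opposite directions in these gates drew attention to the list. Each gate gave 1 value per day, so the difference between the gates was not tested.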

How the results depend on the processing

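Of 631 results under alternatives, 431 stayed within the limits set for them, 194 moved and 6 reversed. No paired analysis was possible because each day is 1 library. In whole marrow the 68 genes higher at D7 CTX became 429 with the median set to 0, 239 without the 20 most abundant genes in the total, 128 without the filter on low genes, 150 with the mean of single-cell CPM and 44 in the mixture, which was chosen after seeing the data. The 2038 lower genes became 498, 852, 4535 (no filter) and 623 (mixture). With the median set to 0 within gates, higher and lower genes went from 144 and 566 to 290 and 234 in the azurophil-gene gate, from 37 and 600 to 107 and 154 in the specific-granule gate, from 38 and 786 to 272 and 153 in the mature neutrophil gate and from 492 and 1293 to 878 and 852 in the B lineage gate. With cut-offs doubled the azurophil-gene gate had 77 higher and 142 lower genes, and without doublets the mature neutrophil gate had 65 higher. The T cell share ratio of -5.25 was -4.38 at 500 UMIs per cell, and that of the 3 neutrophil gates, 0.82, was 0.90 at 1000 UMIs, 0.95 with cut-offs doubled and 0.083 among myeloid cells. The log2 ratio of shares of cells with division transcripts, 0.51 over all cells and 1.49 in B lineage cells, was 1.0 and 3.03 with at least 3 UMIs, 0.088 and 0.82 at 2000 UMIs and 0.31 and 0.47 without thinning. In mature neutrophil gate cells it turned from -1.04 to 0.42 without thinning. Subtracting the B lineage level turned Hba-a1 (-3.67 to 3.55), Hba-a2 (-4.15 to 3.16), Hbb-bs (-3.90 to 5.25) and Hbb-bt (-3.34 to 2.18) in the specific-granule gate and Hbb-bs (-5.86 to 0.69) in the pDC gate. In this subtraction a level below that of the B lineage gate was set to 0 before 1 CPM was added. Hbb-bs at D2 CTX was 695 CPM in the specific-granule gate and 588 CPM in the pDC gate, under 846 CPM in the B lineage gate. At D7 CTX it was 45.6 and 9.14 CPM, over 8.52 CPM. The turned hemoglobin ratios are therefore not read as higher expression. The cause of the moves was otherwise not tested.

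The precision of all values is limited by 1 pool per day: neither the spread between mice nor that between libraries can be seen. Gates with few cells (50 azurophil-gene cells and 188 monocyte cells at D2 CTX, 91 pDCs and 205 B lineage cells at D7 CTX) rest on few counts, and D7 CTX cells carried more UMIs than D2 CTX cells.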
